A study of Homo sapiens with 36 samples.

Results

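The genes described are 9 of the Notch signalling pathway: the receptors NOTCH1, NOTCH2 and NOTCH4, the ligands JAG1, JAG2 and DLL4, and the target genes HES1, HEY1 and HEY2. They were taken by symbol from the 3 deposited tables of normalised read counts, where they are 9 of 18048 genes with values, and all 9 passed the filter of a mean of at least 10 in each table. The family was chosen by the measured HES1 counts of these data at 10 µM for 48 h and at 10 and 100 nM for 6 weeks, so the values of the family at those times are a description without a test. The cells were EA.hy926, an established human line made by fusing umbilical vein endothelial cells with a lung carcinoma line. They received PFOA (perfluorooctanoic acid), a fully fluorinated surfactant that persists in the environment. Messenger RNA was read in 36 libraries, 3 per group. For 48 h cells were given 1, 10 or 100 µM PFOA, and for 6 or 12 weeks 1, 10 or 100 nM. Each exposure time had a group with vehicle alone, and all groups, vehicle included, received 0.05% DMSO and a medium with hypoxanthine, aminopterin and thymidine. The 48 h cells were lysed in their dishes, whereas cells of the long exposures were trypsinised and pelleted at passage, so the short and long exposures also differed in how RNA was taken. The labels call the 3 libraries of a group biological replicates and do not say which came from separate cultures, so p-values measure only the spread between these libraries, which may be partly technical.

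Notch receptors are single-pass membrane proteins that are activated by Jagged or Delta-like ligands on a neighbouring cell. Ligand binding lets ADAM proteases and then gamma-secretase cut the receptor, and the released intracellular domain enters the nucleus, where it joins the DNA-binding protein RBPJ and a Mastermind coactivator. HES1, HEY1 and HEY2 encode basic helix-loop-helix repressors that this complex induces. In endothelium, DLL4 acting through NOTCH1 or NOTCH4 is known for arterial specification and for limiting tip cells during sprouting, and JAG1 can oppose DLL4.

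Promoter sequences of 8 of the 9 genes were found in RefSeq (GRCh38.p14), and HEY1 was not matched. The 250 bases before the annotated start are shown 5′ to 3′ on the coding strand for 5 genes, with capitals marking TGGGAA, the core of the RBPJ motif, or its reverse complement TTCCCA. HES1 and HEY2 are shown because they are the only 2 of the 8 that hold the core, and their 6-week differences had opposite signs on the deposited scale. DLL4 is shown because its counts followed those of HES1, and JAG1 and NOTCH2 because their counts followed each other most closely.
HES1, chr3:194135898-194136147, plus strand: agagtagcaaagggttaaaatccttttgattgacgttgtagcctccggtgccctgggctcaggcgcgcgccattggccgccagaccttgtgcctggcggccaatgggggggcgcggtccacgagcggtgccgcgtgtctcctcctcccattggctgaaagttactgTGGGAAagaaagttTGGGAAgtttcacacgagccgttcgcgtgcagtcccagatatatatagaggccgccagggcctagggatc
HEY2, chr6:125749382-125749631, plus strand: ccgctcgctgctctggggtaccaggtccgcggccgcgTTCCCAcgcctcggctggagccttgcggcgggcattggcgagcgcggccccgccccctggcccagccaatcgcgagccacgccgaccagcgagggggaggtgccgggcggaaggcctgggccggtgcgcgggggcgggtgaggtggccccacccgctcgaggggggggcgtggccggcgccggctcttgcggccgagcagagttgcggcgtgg
DLL4, chr15:40929090-40929339, plus strand: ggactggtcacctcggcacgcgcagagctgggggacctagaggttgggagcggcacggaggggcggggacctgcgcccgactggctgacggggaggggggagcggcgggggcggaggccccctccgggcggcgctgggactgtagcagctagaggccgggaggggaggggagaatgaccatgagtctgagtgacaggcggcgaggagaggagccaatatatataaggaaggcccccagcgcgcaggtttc
JAG1, chr20:10674000-10674249, minus strand: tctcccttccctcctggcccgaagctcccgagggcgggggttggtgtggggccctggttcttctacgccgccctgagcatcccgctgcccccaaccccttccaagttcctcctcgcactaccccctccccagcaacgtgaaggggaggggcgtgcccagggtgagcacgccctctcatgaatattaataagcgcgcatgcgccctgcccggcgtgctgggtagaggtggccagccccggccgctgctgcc
NOTCH2, chr1:120069663-120069912, minus strand: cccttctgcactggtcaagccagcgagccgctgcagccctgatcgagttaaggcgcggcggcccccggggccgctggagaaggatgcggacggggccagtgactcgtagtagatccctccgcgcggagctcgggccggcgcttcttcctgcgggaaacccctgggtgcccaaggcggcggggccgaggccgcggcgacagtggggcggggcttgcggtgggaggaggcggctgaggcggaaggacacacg

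The HES1 window holds the core 2 times on the coding strand, at -84 to -79 and at -70 to -65, counted from the first transcribed base so that -1 is the base before it. The first copy lies within the longer form GTGGGAA. HEY2 holds GTGGGAA once, on the other strand, at -213 to -207. Of the same 250 bases before the start of all 35116 promoters in the RefSeq table, 20.8% hold TGGGAA on either strand, 2.90% hold it at least 2 times and 5.43% hold GTGGGAA. HES1 also has 3 matches to CACNAG, the N box bound by HES proteins themselves, and 1 to TGACGT, the core of the cyclic AMP response element, each searched on both strands. The N box occurs at least 1 time in 32.0% of all promoters and at least 2 times in 6.32%, and TGACGT occurs in 7.10%. The run TATATA, picked after the sequences were seen, lies at -31 to -24 in HES1 as 2 overlapping matches and at -34 to -27 in DLL4. Of all windows, 3.73% hold it and 0.752% hold it at least 2 times. JAG1, NOTCH1 and NOTCH2 hold none of the 6 motifs searched, which also included the E box CANNTG. These are matches of letters in a window and do not show that a factor is bound.

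The genes lie on different chromosomes in GRCh38.p14, apart from NOTCH4 and HEY2, which are both on chromosome 6. HES1 spans 194136148 to 194138732 on chromosome 3, DLL4 40929340 to 40939073 on chromosome 15, JAG1 10637684 to 10673999 on chromosome 20 and NOTCH2 119911553 to 120069662 on chromosome 1. The NOTCH2NL genes on chromosome 1 are partial copies of NOTCH2, and the counting tool is not given in the sources used here, so reads of NOTCH2 may have been split with them. NOTCH2NLA itself had table means of 1403, 1685 and 775 normalised counts at 48 h, 6 weeks and 12 weeks, and NOTCH2 is reported as uncertain for this reason.

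The 36 libraries held 17815292 to 19466331 reads each, recovered from the deposited values as whole multiples of a step. The 12 libraries of each table differed along 1 main axis, which took 78.0% (48 h), 83.8% (6 weeks) and 69.2% (12 weeks) of the variance. That variance includes differences between dose groups as well as between libraries of the same group. The axis ran with the share of reads from ribosomal protein genes. That share ran from 9.11% to 21.7%. Of the endothelial markers examined, 8 of 10 had a mean of at least 10 counts, among them TIE1, CDH5, PECAM1 and ERG. KDR had a mean of 1.93 and CLDN5 of 0.0208, so these endothelial markers were at or near 0. Of the epithelial markers 4 of 6 reached a mean of 10, with KRT8, KRT18 and KRT7 abundant and CDH1 at 0.0267, and of the leukocyte markers 1 of 5, namely CD68, while PTPRC was at 0.0638.

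Per kilobase of transcript, which allows levels to be set between genes, JAG1 was the highest of the family at 48 h with a mean of 322 normalised counts per kilobase, followed by NOTCH2 at 191, HES1 at 169, NOTCH1 at 153 and NOTCH4 at 58.9. JAG2 was at 27.1, HEY1 at 19.6, DLL4 at 12.8 and HEY2 at 7.48. At 6 weeks HES1 was the highest, at 1044 per kilobase, and at 12 weeks at 643, whereas JAG1 stood at 319 and 358. All these are means over the 12 libraries of a table, exposed groups included. The 6-week HES1 mean holds the 10 and 100 nM groups, at 2687 and 2366 counts. With vehicle alone HES1 had means of 347, 915 and 861 counts at 48 h, 6 weeks and 12 weeks. JAG1, NOTCH1, NOTCH2, NOTCH4 and DLL4 kept similar per-kilobase levels over the 3 times, with DLL4 at 12.8, 13.1 and 14.2. The size factors of the 3 tables follow 1 scale, so levels across times can be set side by side, but no test was made between times because handling differed. Among other receptors and ligands, NOTCH3 had at most 5.32 counts in any library, DLL1 had 5.90 to 59.0, and DLL3, DLK1, DLK2 and CNTN1 had group means of at most 1.49.

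HES1 had the widest range of the 9 genes, from 113 to 3097 normalised counts, a ratio of 27.4. In vehicle cells at 48 h the libraries held 328, 332 and 383 counts. At 1 µM they held 403, 263 and 304. At 10 µM they held 166, 252 and 113, and at 100 µM 241, 213 and 200.2. All 6 libraries at 10 and 100 µM lay below all 3 vehicle libraries, while those at 1 µM lay on both sides. The difference from vehicle in log2(count + 1) was -0.12 ± 0.29 (SE) at 1 µM, -1.04 ± 0.29 at 10 µM and -0.67 ± 0.29 at 100 µM.

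**Figure D1:**
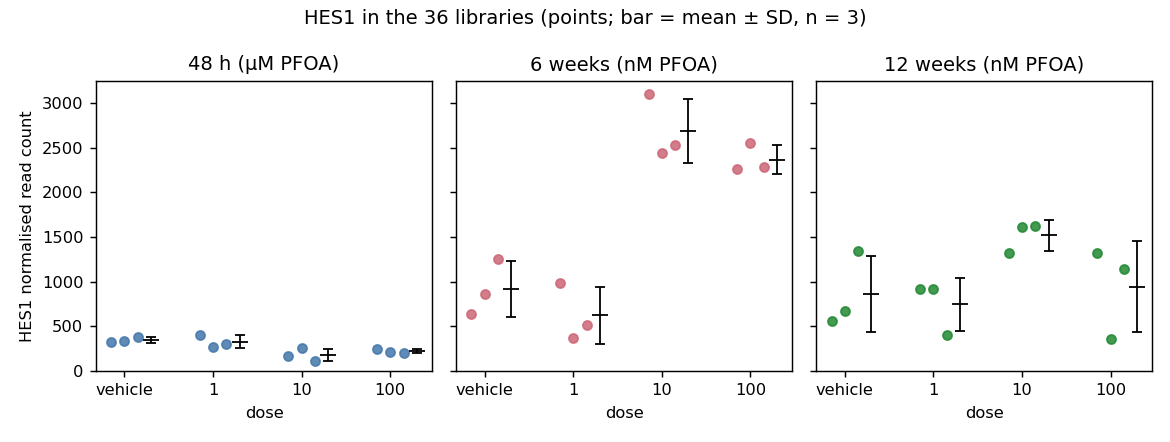
Normalised read counts of HES1 (vertical axis) in each library by PFOA dose (horizontal axis) for the 3 exposure times, with the mean and SD of each group (n = 3) beside the points. At 6 weeks the libraries at 10 and 100 nM sit between 2262 and 3097, above all other libraries at any time.

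At 6 weeks HES1 was at 632, 856 and 1257 counts with vehicle and at 978, 367 and 517 with 1 nM. With 10 nM the counts were 3097, 2435 and 2528, and with 100 nM 2262, 2554 and 2281. Every library at the 2 higher doses lay above every library with vehicle or 1 nM, with no overlap. Against vehicle alone, 30.6% of all tested genes lay above without overlap at 10 nM and 22.9% at 100 nM. How many genes also lay above 1 nM was not counted. The means were 2687 ± 358 (SD, n = 3) and 2366 ± 164 against 915 ± 317 with vehicle, which gave log2 differences of 1.60 ± 0.36 and 1.42 ± 0.36, or 3.04-fold and 2.68-fold. The libraries at 10 and 100 nM overlapped with each other. The 1 nM group differed from vehicle by -0.62 ± 0.36, with overlapping libraries.

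At 12 weeks HES1 was at 561, 674 and 1346 counts with vehicle, 920.4, 911 and 398 with 1 nM, 1319.9, 1610.1 and 1621 with 10 nM, and 1320.1, 361 and 1139.9 with 100 nM. Every dose overlapped with vehicle. The largest of the 12-week differences for HES1 was 0.92 ± 0.51 at 10 nM (limma adjusted p = 0.655), against -0.20 ± 0.51 at 1 nM and 0.03 ± 0.51 at 100 nM (adjusted p = 0.977). The value at 100 nM turned on replicate 2, the library at 361, and was 0.62 ± 0.45 without it. At 10 nM the value was 1.29 ± 0.54 without vehicle replicate 3, the library at 1346. The effect of 100 nM on HES1 at 12 weeks minus that at 6 weeks was -1.39 ± 0.65, and -0.81 ± 0.58 without the same 100 nM library. At 10 nM this difference between times was -0.68 ± 0.65. Both are built on the 6-week HES1 values by which the family was chosen, so they are given as a description without a test.

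Ordered by mean, HES1 ran from 10 nM at 6 weeks (2687) and 100 nM at 6 weeks (2366) to 10 nM at 12 weeks (1517), 100 nM at 12 weeks (940.5) and vehicle at 6 weeks (915). Vehicle and 1 nM at 12 weeks and 1 nM at 6 weeks followed at 861, 743 and 621. The 4 groups at 48 h closed the order at 347, 324, 218 and 177 for vehicle, 1, 100 and 10 µM. Of the 11 pairs of neighbours in this order, 2 did not overlap: 100 nM at 6 weeks against 10 nM at 12 weeks, and 1 µM against 100 µM at 48 h. The 9 other pairs of neighbours overlapped. The order was set by the HES1 means themselves, including those by which the family was chosen. Pairs were not counted over all genes, so nothing is read from their number.

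HEY1, the second target, which acts with HEY2 in arterial endothelium, was a low-count gene with 5 to 141 reads in a library. At 6 weeks it was at 8.08, 51.5 and 30.3 normalised counts with vehicle and at 40.5, 9.31 and 11.5 with 1 nM. It was at 90.9, 92.9 and 98.0 with 10 nM and at 58.3, 73.2 and 71.4 with 100 nM. As for HES1, all 6 libraries at the higher doses lay above all 6 others, with log2 differences from vehicle of 1.95 ± 0.62 and 1.47 ± 0.62. The share of all genes with this pattern was not counted. Against vehicle alone it was 30.6% at 10 nM and 22.9% at 100 nM. Vehicle replicate 1 rested on 5 reads, and without it the difference at 10 nM was 1.23 ± 0.52. At 48 h HEY1 did not follow HES1: the 3 libraries at 100 µM, at 43.1, 28.7 and 54.6, overlapped with vehicle at 44.9, 55.7 and 38.6. At 12 weeks the vehicle libraries were already spread from 25.9 to 88.5, and 10 nM, at 85.8, 89.8 and 113, differed from them by 0.70 ± 0.45 (limma adjusted p = 0.655).

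HEY2, the third target, was the lowest per kilobase at 48 h and 6 weeks but not at 12 weeks, with 12 to 53 reads in a library. Its values at 6 weeks were 33.9, 26.3 and 17.2 with vehicle, 17.3, 17.7 and 13.0 with 10 nM, and 17.7, 18.3 and 27.8 with 100 nM. The groups overlapped, and the log2 differences of -0.62 ± 0.39 and -0.25 ± 0.39 had the opposite sign to those of HES1 and HEY1. With each library scaled to its total reads in place of the deposited scale, the HEY2 difference at 10 nM was 0.02, so its sign depends on the scale. At 12 weeks HEY2 had 28.8 to 68.5 counts over all groups, and the doses differed from vehicle by -0.15 to 0.11 on the log2 scale.

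DLL4, the Delta-like ligand of sprouting endothelium, was at 57.9, 63.7 and 63.9 counts with vehicle at 48 h, a narrow spread for so low a count. It was at 48.6, 53.8 and 44.2 with 1 µM, at 26.1, 57.2 and 17.4 with 10 µM, and at 28.0, 30.0 and 38.1 with 100 µM. All 9 exposed libraries lay below all 3 vehicle libraries, although at 10 µM replicate 2 did so by less than 1 count. The log2 differences were -0.34 ± 0.37, -1.03 ± 0.37 and -0.94 ± 0.37 in order of dose, and the value at 10 µM was -1.49 ± 0.29 without replicate 2. At 6 weeks DLL4 was at 53.3, 32.9 and 39.4 with vehicle and at 71.0, 53.8 and 60.5 with 10 nM. These did not overlap, but by a margin of less than 1 count, and the difference was 0.57 ± 0.44. DLL4 overlapped with vehicle at 1 and 100 nM. At 12 weeks the 100 nM libraries were at 72.0, 5.90 and 68.1, the middle value resting on 5 reads in replicate 2, and the difference of -0.39 ± 0.76 turned to 0.73 ± 0.48 without that library.

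JAG1, the most abundant ligand, was at 1023, 1433 and 1218 counts with vehicle at 6 weeks. It was at 1719, 3682 and 2909 with 10 nM and at 2449.5, 1978 and 1603 with 100 nM. Both doses lay above vehicle without overlap, with log2 differences of 1.12 ± 0.40 and 0.71 ± 0.40. The 1 nM libraries were at 2687, 1073 and 982, so that replicate 1 alone of this group lay within the range of the libraries at 10 and 100 nM. At 48 h JAG1 was at 1804, 2329 and 1068 with vehicle and at 1439.9, 3983 and 935 with 10 µM, so the exposed libraries included both the highest and the lowest JAG1 count of that table. Its difference at 12 weeks was 0.68 ± 0.43 at 10 nM (limma adjusted p = 0.655) and 0.46 ± 0.43 at 100 nM.

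JAG2, the second Jagged ligand, had lower means than vehicle at 10 and 100 nM for 6 weeks. At 6 weeks it was at 225, 66.8 and 120.3 counts with vehicle and at 60.6, 67.8 and 78.9 with 10 nM, which overlapped, with a difference of -0.82 ± 0.48. Its sign depends on the setting: JAG2 differed by 0.24 at 10 nM and 0.34 at 100 nM once the table's first principal component entered the fit, and at 100 nM by 0.08 with each library scaled to its total reads. At 12 weeks it was at 80.2, 215 and 95.9 with vehicle and at 102, 22.4 and 52.5 with 100 nM. That difference, -1.24 ± 0.52, was the largest in size of the 9 genes at 12 weeks, and the libraries overlapped (limma adjusted p = 0.751). Without 100 nM replicate 2, the library at 22.4, it was -0.69 ± 0.48. At 48 h JAG2 differed from vehicle by -0.21 to -0.24 at the 3 doses, each less than its SE of 0.35.

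NOTCH1, the main signalling receptor of arterial endothelium, was at 1658, 1937 and 1581 counts with vehicle at 48 h and at 1029.7, 1002 and 1125 with 100 µM. These did not overlap, and the difference was -0.71 ± 0.30. At 10 µM the libraries were at 901, 1920.1 and 876, of which replicate 2 lay within the vehicle range and the others well below it. The difference at 10 µM was -0.58 ± 0.30, and -0.95 ± 0.22 without replicate 2. At 6 weeks NOTCH1 was at 1249, 817 and 1279 with vehicle and at 1283, 1364 and 1401 with 10 nM, which did not overlap by a narrow margin, with a difference of 0.30 ± 0.28. At 12 weeks it was at 1677, 586 and 1683 with 100 nM, where replicate 2 was the lowest NOTCH1 value of all 36 libraries.

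NOTCH2 was at 1117, 1415 and 1842 counts with vehicle at 6 weeks, at 2359, 4025 and 3222 with 10 nM and at 3183, 2472 and 1880.1 with 100 nM. Both doses lay above vehicle, the second by a narrow margin, with differences of 1.13 ± 0.40 and 0.78 ± 0.40. In the 1 nM group replicate 1 was at 3457 and the others at 1510.2 and 1182. At 48 h the 10 µM libraries were spread over 1256, 4657 and 697, and the difference of -0.46 ± 0.60 was -1.23 ± 0.42 without replicate 2 and 0.14 ± 0.54 without replicate 3. NOTCH4, the endothelial receptor, had the smallest ratio of highest to lowest count of the 9 genes, 3.13, from 217 to 679.7. It overlapped with vehicle in all 9 comparisons, with differences from -0.49 to 0.08.

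Counted over the family, 1 of 9 genes lay below vehicle without overlap at 1 µM, DLL4, where 1.17% of all 12233 tested genes did. At 10 µM there were 2, HES1 and DLL4, against 3.52% of all genes, and at 100 µM 3, HES1, NOTCH1 and DLL4, against 6.46%. None of the 9 lay above vehicle at 48 h, where 1.14%, 2.67% and 4.32% of all genes did at 1, 10 and 100 µM. At 6 weeks 6 of 9 lay above vehicle at 10 nM, where 30.6% of all 12201 tested genes did, and 4 of 9 at 100 nM, against 22.9%. None of the 9 lay below vehicle there, where 29.8% and 24.4% of all genes did. At 1 nM for 6 weeks none of the 9 was separate from vehicle, where 0.754% of all genes lay above and 0.557% below. At 12 weeks none was separate at any dose, where 1.66%, 2.06% and 2.07% of all genes lay above vehicle and 0.805%, 1.22% and 2.57% below at 1, 10 and 100 nM. Since the 48 h and 6-week values chose the family, nothing is read from the counts at those times. The median difference of the 9 genes was 0.57 at 10 nM and 0.27 at 100 nM for 6 weeks, against 0.05 and 0.04 over all tested genes. At 10 and 100 µM it was -0.24 and -0.22, against 0.01 and 0.03.

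**Figure D2:**
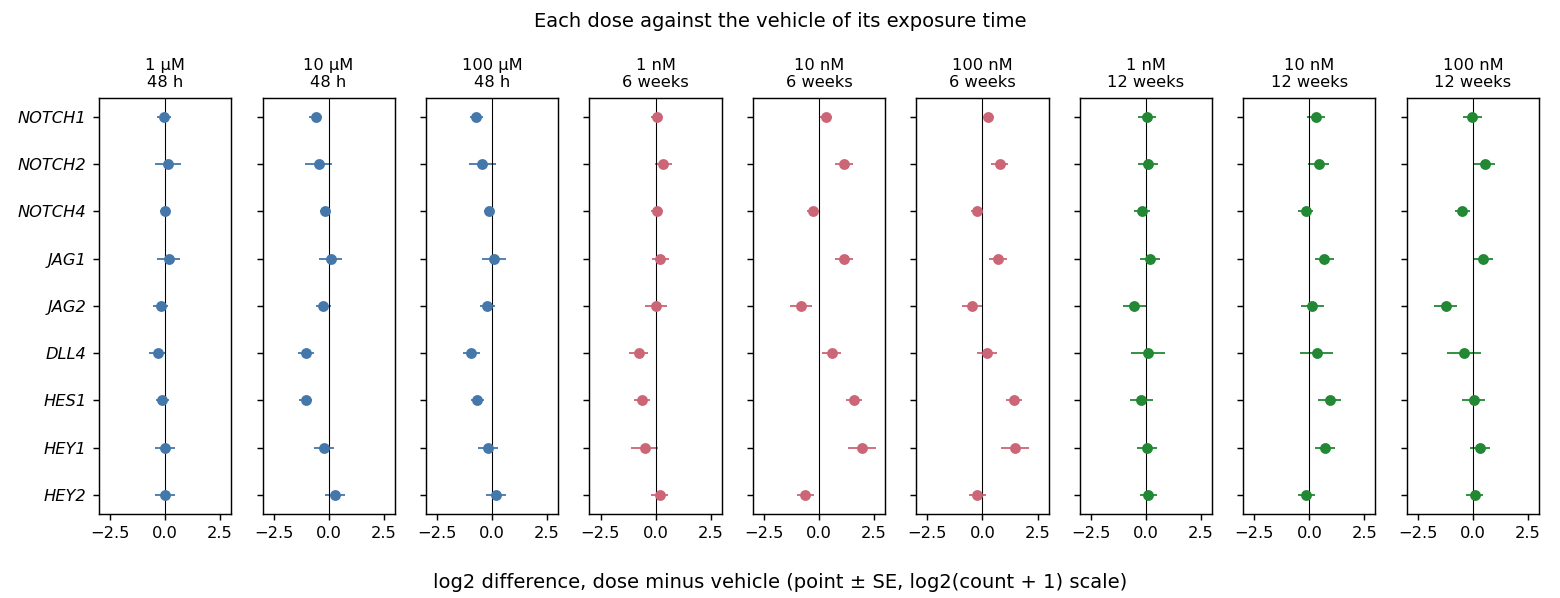
Difference from vehicle in log2(count + 1) (horizontal axis, point ± SE, 3 libraries a group) for the 9 genes (rows) in the 9 dose comparisons (panels). HES1 is at 1.60 and 1.42 for 10 and 100 nM at 6 weeks and at -1.04 and -0.67 for 10 and 100 µM at 48 h, while HEY2 and JAG2 lie left of 0 at 10 nM for 6 weeks on the deposited scale, a sign that other settings turn.

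In the fit across all genes, limma called none of the 9 genes in any of the 9 dose comparisons, 3 dose trends or 3 differences between 12 and 6 weeks, and 0% of all tested genes in each (adjusted p under 0.05). The nearest was 10 nM at 6 weeks, where 5365 of 12201 genes had an unadjusted p under 0.05 and the smallest adjusted p over all genes was 0.0953. In that comparison DESeq2 on the recovered reads called 4 of the 9, HES1, HEY1, JAG1 and NOTCH2, and 30.4% of all genes. A limma fit of only the vehicle and 10 nM libraries called the same 4 and 38.9% of all genes, and edgeR called 0. Without 1 nM replicate 1 or 1 nM replicate 3, libraries outside this comparison that add to its estimate of spread, limma called the same 4, with 48.7% and 26.3% of all genes. For the dose trend at 6 weeks DESeq2 called HES1 and HEY1 and 26.0% of all genes. That trend called 4 of the 9 and 58.1% of all genes with limma without 1 nM replicate 1. These calls are given as counts, and nothing is read from them, since these contrasts brought HES1 forward. In the other comparisons DESeq2 called none of the 9 and few of all genes: 0.00818% at 1 and 10 µM, 0.0164% and 0.0246% at 1 and 100 nM for 6 weeks, 0.0163% and 0.00813% at 10 and 100 nM for 12 weeks, and 0.0163% for the trend at 12 weeks. For the 12 weeks minus 6 weeks effects it called 0.0166% at 1 nM and 0.00831% at 10 and at 100 nM. At 12 weeks limma called 0 of 12304 genes at each dose, with 24, 168 and 287 genes at an unadjusted p under 0.05 at 1, 10 and 100 nM, and edgeR called 0. With 3 libraries against 3 an exact permutation test of a single gene cannot go below p = 0.1.

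The ribosomal protein share of reads moved with several of these genes. At 6 weeks it was 16.8% to 18.9% with vehicle, 11.1% to 18.5% with 1 nM, 9.11% to 13.1% with 10 nM and 11.4% to 15.8% with 100 nM. The groups at 10 and 100 nM did not overlap with vehicle in this share. Over the 12 libraries of that table, which share the table's scaling and the 3 exposed groups, NOTCH2 ran against the share with r = -0.98 and JAG1 with r = -0.98, and HES1 with r = -0.74. HEY2 ran with it, at r = 0.82. HEY1 ran against it with r = -0.78. At 48 h the share was 11.8% to 16.6% with vehicle, 10.6% to 15.9% with 1 µM, 9.83% to 20.3% with 10 µM and 13.6% to 19.3% with 100 µM. There r was -0.96 for NOTCH2, -0.85 for NOTCH1, -0.79 for JAG1, -0.78 for DLL4, -0.72 for HEY1 and -0.50 for HES1, and 0.80 for HEY2. The mitochondrial share at 6 weeks was 9.24% to 11.4% with vehicle and 5.99% to 7.82% with 10 nM, without overlap. It was 6.27% to 9.70% with 100 nM and as low as 5.58% with 1 nM, and both groups overlapped with vehicle. The part of either share in these results was not tested. The 1 nM library of replicate 1 at 6 weeks, with a ribosomal share of 11.1%, had the highest count of its group for NOTCH2, JAG1, HES1 and HEY1. Its NOTCH2 and JAG1 counts lay inside the range of the 10 nM libraries, and its HES1 count of 978 and HEY1 count of 40.5 lay below every library at 10 or 100 nM. The 10 µM library of replicate 2 at 48 h, with a ribosomal share of 9.83%, had the highest NOTCH2 and JAG1 counts of that table, and its HES1 count of 252 was the highest of its group and below all vehicle libraries.

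With the library score on the first component as a covariate, the 6-week differences of HES1 were 0.99 at 10 nM and 0.96 at 100 nM, and those at 48 h -0.94 and -0.58 at 10 and 100 µM. For JAG1 and NOTCH2 the same fit gave 0.17 and 0.15 at 10 nM for 6 weeks, and for HEY1 0.57. At 6 weeks the component is partly confounded with dose, so this fit and the dose effect cannot be fully told apart. The endothelial markers summed to 15552 to 19639 counts with 10 nM at 6 weeks and to 23095 to 51593 with vehicle. In the same groups the epithelial markers summed to 20568 to 40884 and 74296 to 142645. The smooth muscle and pericyte markers summed to 274 to 429 and 542 to 841. The leukocyte markers, at 1398 to 2036 and 1600 to 6587, overlapped. Lower sums were thus not particular to endothelial or epithelial markers. Abundant genes weigh most in such sums, with EGFL7 at up to 40008 counts in a library and KRT18 at up to 103609. The part of these shifts in the values of the Notch genes was not tested. All libraries are labelled as 1 hybrid line, so these sums are not read as shares of separate cell types. In bulk samples a change in some of the cells and a change in all of them cannot be told apart.

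Over the 36 libraries, with each table centred on its mean, DLL4 (r = 0.77) and HEY1 (r = 0.75) were the most like HES1 within the family, followed by NOTCH1 (0.64), NOTCH2 (0.57) and JAG1 (0.53). NOTCH4 and JAG2 were at -0.06 and -0.08, and HEY2 at -0.50. The closest pairs were JAG1 with NOTCH2 at r = 0.92, NOTCH1 with DLL4 at 0.86 and NOTCH4 with JAG2 at 0.79, and the most opposed were HEY2 and NOTCH2 at -0.81. Within tables the likeness of DLL4 to HES1 was 0.87, 0.78 and 0.80 at 48 h, 6 weeks and 12 weeks, whereas that of HEY1 was 0.41, 0.92 and 0.49. These correlations share the libraries' depth, scaling and main axis of variation and are given as a description.

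Among 10488 genes ranked over all libraries, the 10 most like HES1 were ZFP36, EGR1, FOS, ANKRD11, KIF13B, TLNRD1, HEXIM1, RHNO1, MPLKIP and IRAK2, with r from 0.91 down to 0.84. ZFP36 encodes an mRNA-destabilising protein, and EGR1 and FOS are immediate early transcription factors that serum and handling are known to induce. The 5 least like it were BIRC5, the apoptosis inhibitor survivin, and GOT2, SRP68, KNOP1 and ATG7, at -0.81 or -0.82. ZFP36 had 356 ± 149 counts with vehicle at 6 weeks, 701 ± 99.2 with 10 nM and 619.6 ± 51.0 with 100 nM, and 316 ± 10.1 at 48 h with vehicle against 197 ± 107 with 10 µM and 170.1 ± 46.4 with 100 µM. FOS had 512 ± 424, 2802 ± 484 and 2060.4 ± 476 in the same 6-week groups and 80.6 ± 30.5 with vehicle at 48 h. EGR1 had 195 ± 116, 1158 ± 255 and 786 ± 234, and 71.6 ± 19.2 with vehicle at 48 h. Like HES1, both had higher vehicle counts at 6 weeks than at 48 h. Their higher means at 10 and 100 nM are no further likeness, since both were named for their correlation with HES1 over these libraries.

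The other genes of the pathway were taken from lists of ligands, receptor maturation and cleavage, glycosyltransferases, trafficking and turnover, the nuclear complex, corepressors and further targets. Of 72 with values, 60 passed the filter at 48 h and 58 at 6 and 12 weeks, and limma called none in any direction in the 9 dose comparisons, as for all genes. At 10 nM for 6 weeks 36 of 58 were higher than vehicle and 22 lower, with a median of 0.23 against 0.05 over all genes. At 10 and 100 µM for 48 h 23 and 22 of 60 were higher, with medians of -0.14 and -0.12.

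Of the 10 genes of the nuclear complex, 8 were higher at 10 nM for 6 weeks, with a median of 1.20, and 8 at 100 nM, with a median of 0.90. Among them the acetyltransferase EP300 was at 427 ± 133 counts against 123 ± 40.4 with vehicle, a difference of 1.79 ± 0.57, and the Mastermind coactivator MAML1 differed by 1.33 ± 0.49. RBPJ, the DNA-binding subunit, differed by -0.47 ± 0.32, and the acetyltransferase KAT2A by -1.53 ± 0.55. MAML1, RBPJ and KAT2A were named after their values were seen. At 12 weeks 8 of the 10 were higher at 10 nM and 9 at 100 nM, with medians of 0.46 and 0.38. The values of list genes are not adjusted for the first component, which at 6 weeks is partly confounded with dose. Its part in them was not tested.

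In trafficking, MIB1, the ubiquitin ligase that primes ligands for endocytosis, was at 624 ± 273 counts with 10 nM at 6 weeks against 152 ± 79.7, a difference of 2.12 ± 0.65, although the list was split 5 to 5. HES4, a further hairy-related target, was at 219 ± 68.2 against 979 ± 555, or -2.05 ± 0.71, and 6 of the 10 tested targets were lower than vehicle. Of the 9 genes of receptor maturation and cleavage 7 were higher, with a median of 0.18. Of the 5 glycosyltransferases 3 were lower, among them RFNG at -1.89 ± 0.63. MIB1, HES4, RFNG and EP300 were the 4 largest in size outside the immediate early genes, a pool formed after the values were seen. With those genes included the largest were FOS, EGR1 and NR4A2, at 2.80 ± 0.68, 2.70 ± 0.65 and 2.41 ± 0.57. The only further ligand that passed the filter, DLL1, was at 51.2 ± 7.84 against 22.7 ± 8.88, or 1.20 ± 0.37.

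At 48 h the largest differences at 10 µM among the pathway and immediate early lists together were MYC, a Notch target in some cell types, at 1428 ± 1235 counts against 2523 ± 275, or -1.24 ± 0.59, and the immediate early genes FOS and EGR1 at -1.14 ± 0.70 and -1.11 ± 0.62. At 100 µM the immediate early genes FOS and ZFP36 differed by -1.44 ± 0.70 and -0.92 ± 0.39, and HES4 differed by 0.88 ± 0.90, with 725 ± 505 counts against 345 ± 176. Of the 13 corepressors, 9 were lower at 100 µM and 9 higher at 10 nM for 6 weeks, with medians of -0.22 and 0.31. Of the 12 tested immediate early genes 11 were lower at both 10 and 100 µM, with medians of -0.52 and -0.47, and 9 were higher at 10 nM for 6 weeks, with a median of 1.21. At 12 weeks the largest list differences were FOS, FOSB and EGR1 at 10 nM, at 1.69 ± 0.78, 1.21 ± 0.37 and 1.18 ± 0.72 (limma adjusted p = 0.655 each), and TLE2, RFNG and KAT2A at 100 nM, at -1.09 ± 0.58, -1.06 ± 0.64 and -1.02 ± 0.53 (adjusted p = 0.751 each).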

How the data were processed

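Messenger RNA of EA.hy926 cells was measured in 36 libraries, in 12 groups of 3 given by the labels. The authors deposited 1 table per exposure time of a signal, meaning reads per gene over a library size factor. The tools named in the submitters' processing notes are HISAT, Bowtie2 and DESeq2, with GRCh38.p14. How reads were counted, and whether by strand, is not given in the sources used here. In each library the values were whole multiples of a step (100% within 0.01), so whole reads were recovered. 

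The genes, the pathway lists and the marker lists were chosen with earlier results of these data known. Genes with a table mean of at least 10 (12233, 12201 and 12304) were fitted with limma 3.58.1 in R 4.3.3 on log2(signal + 1), with 1 mean per group and all 12 libraries of a table. Adjusted p-values are Benjamini-Hochberg over all tested genes, two-sided, with a threshold of 0.05, and fold changes on this scale understate low genes. The 12 weeks minus 6 weeks effects used 24 libraries. Likeness to HES1 is Pearson's r over 36 libraries, each table centred, among genes with a mean of at least 50. By rule, the text may name the 9 genes, the 3 list genes with the largest difference among those with a mean of at least 50, and the 10 most and 5 least like HES1, and names chosen otherwise are marked. Lengths are of the longest protein-coding transcript in GENCODE 29. Alternatives were pseudocounts of 0.1 and 10, no filter, a mean of at least 50, quantile normalization, a replicate block, the first component as a covariate, only the groups compared, edgeR 4.0.16, DESeq2 1.42.0 and each library left out. Scaling each library to its total reads was added after seeing the data. The fits were tested on simulated counts with known changes. Libraries there varied independently, or for the covariate fit along a component balanced within each group. No simulated component was confounded with dose, so the simulation does not cover that feature of the 6-week data.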

Additional observations from a re-analysis of the deposited data

How the results depend on the processing

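The count of the 9 Notch genes called was 0 in each of the 15 comparisons, trends and differences under limma, and also under the other settings, apart from 6 cases. At 10 nM for 6 weeks it was 4 with DESeq2 and 4 with only the groups compared, and between 0 and 4 with 1 library left out. For the dose trend at 6 weeks it was 2 with DESeq2, and between 0 and 4 with 1 library left out, the 4 without 1 nM replicate 1. Over all genes the count at 10 nM for 6 weeks ran from 0 with limma to 3706 with DESeq2, 4742 with only the groups compared and 5946 without 1 nM replicate 1, and for the trend from 0 to 3174 with DESeq2 and 7084 without 1 nM replicate 1. The cause was not tested.

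Whether replicate numbers pair the libraries cannot be told from the values. Correlations of same-numbered deviations ran from -0.89 to 0.89, and 7, 5 and 8 of 18 pairs exceeded 0.1 at 48 h, 6 weeks and 12 weeks. The main axis takes most of the variance, so correlations of this size can arise with or without pairing. At 48 h the vehicle, 1 µM and 10 µM groups had the same order of replicates on that axis, and the 100 µM group did not. With the replicate number as a block, 0 of the 9 genes were called in each comparison.

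Of 1842 differences of single genes under the alternatives, 38 moved by more than the spread between replicates and 125 changed sign, of which 9 were HES1 values and 26 HEY2 values. The HES1 difference ran from 0.99 to 2.27 at 10 nM and from 0.96 to 1.98 at 100 nM for 6 weeks, and from -1.35 to -0.76 at 10 µM and -0.97 to -0.58 at 100 µM. Scaling to total reads, an alternative chosen after seeing the data, put the median of all genes at 0.72 and 0.59 at 10 and 100 nM for 6 weeks, against 0.05 and 0.04 on the deposited scale, and at -0.30 and -0.26 at 10 and 100 µM, against 0.01 and 0.03. HES1 is then at 2.27 and 1.98, and at -1.35 and -0.97, in the same order. Differences of HEY1 and DLL4 rest on as few as 5 reads in a library and those of HEY2 on as few as 12, which limits their precision.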
